A study of Homo sapiens with 16 samples.

Results

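The CYP26 genes encode the cytochrome P450 enzymes that hydroxylate all-trans retinoic acid (ATRA), and the family has 3 members in human, CYP26A1, CYP26B1 and CYP26C1. All probes annotated to these 3 genes were taken. They are 6 of the 47230 probes on the array: 4 for CYP26A1, 1 for CYP26B1 and 1 for CYP26C1. The cells were ME180, an established human line of cervical epidermoid carcinoma, a squamous tumour, taken from an omental metastasis. One group of 4 arrays came from cells given the DMSO vehicle, for which the labels state no time. The other arrays came from cells given 10 µM ATRA, with 4 arrays at 1 h, 4 at 3 h and 4 at 6 h. All groups were grown in the same serum-containing medium, and ME180 is a single line, so the values describe that line only. No label ties the replicates of a group to separate cultures, so a p-value here reflects array-to-array spread, which may be technical.

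ATRA enters the nucleus and binds the retinoic acid receptors, which pair with the retinoid X receptors on direct repeats of a short DNA half-site. The CYP26 enzymes turn ATRA into more polar products that are cleared, so they lower the retinoic acid level in the cells that make them. Their own genes are among the known targets of the receptors, CYP26A1 above all, which makes the family a feedback arm of the retinoic acid pathway. CYP26B1 acts in the same way in other tissues, skin and limb among them. CYP26C1 also hydroxylates a cis isomer of retinoic acid and is best known from the embryonic head.

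The start regions of the 3 genes are shown because the receptor's half-sites can be looked for there and set beside the responses below. CYP26C1 and CYP26A1 are neighbours on chromosome 10, with 3934 bases and 0 protein-coding genes between them, and CYP26B1 is on chromosome 2. RefSeq lists 2 windows for CYP26A1 and 1 each for the others in the human assembly GRCh38.p14. The 250 bases before each start are chr10:93073225-93073474 on the plus strand for the upstream CYP26A1 start and chr10:93073643-93073892 on the plus strand for the downstream one. They are chr2:72147863-72148112 on the minus strand for CYP26B1 and chr10:93060548-93060797 on the plus strand for CYP26C1. Each is written in the direction of its gene, and capitals mark the half-sites found.
CYP26A1, upstream start: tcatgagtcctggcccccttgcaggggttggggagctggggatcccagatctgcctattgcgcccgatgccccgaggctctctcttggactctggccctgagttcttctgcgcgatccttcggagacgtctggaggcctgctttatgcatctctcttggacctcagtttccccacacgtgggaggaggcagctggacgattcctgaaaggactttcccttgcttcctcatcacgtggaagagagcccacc
CYP26A1, downstream start: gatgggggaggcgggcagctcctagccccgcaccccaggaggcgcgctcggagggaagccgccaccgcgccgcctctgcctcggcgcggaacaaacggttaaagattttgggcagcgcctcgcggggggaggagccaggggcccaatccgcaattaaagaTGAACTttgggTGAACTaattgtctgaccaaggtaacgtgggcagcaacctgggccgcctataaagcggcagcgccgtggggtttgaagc
CYP26B1: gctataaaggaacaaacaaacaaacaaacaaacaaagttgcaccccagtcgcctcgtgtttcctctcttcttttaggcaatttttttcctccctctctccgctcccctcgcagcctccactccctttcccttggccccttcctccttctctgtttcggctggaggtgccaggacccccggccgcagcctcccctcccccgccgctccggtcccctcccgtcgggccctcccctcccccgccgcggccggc
CYP26C1: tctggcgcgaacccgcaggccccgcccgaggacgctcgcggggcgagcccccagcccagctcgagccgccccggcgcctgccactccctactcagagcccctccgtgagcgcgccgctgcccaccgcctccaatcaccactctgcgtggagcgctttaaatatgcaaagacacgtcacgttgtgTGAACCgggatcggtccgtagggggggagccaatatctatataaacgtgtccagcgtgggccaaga

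In all, 4 half-sites were searched on both strands, with the first 50 bases of the transcript included. AGGTCA is the consensus, AGTTCA is a variant of it, and GGGTCA was searched along with GGTTCA as further variants. The window of the downstream CYP26A1 start held 2 of them, both AGTTCA on the opposite strand to the gene, at positions -90 to -85 and -79 to -74 counted from the last base before the start as -1. Read on that strand they form a direct repeat with 5 bases between, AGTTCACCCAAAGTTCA, which spans -90 to -74. Of 35116 RefSeq promoter windows of this length, 31 (0.0883%) held a direct repeat of these half-sites with 5 bases between. The CYP26C1 window held 1 half-site, GGTTCA on the opposite strand at -66 to -61, and 38.6% of the windows held at least 1. None of the 4 was found in the windows of the upstream CYP26A1 start and of CYP26B1. Direct repeats with 1 or 2 bases between, searched in the same way, were found in 0.131% and 0.0399% of all windows and in none of these 4. The map of the promoter windows shows the matches. They describe letters in the windows and say nothing of binding.

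**Figure D1:**
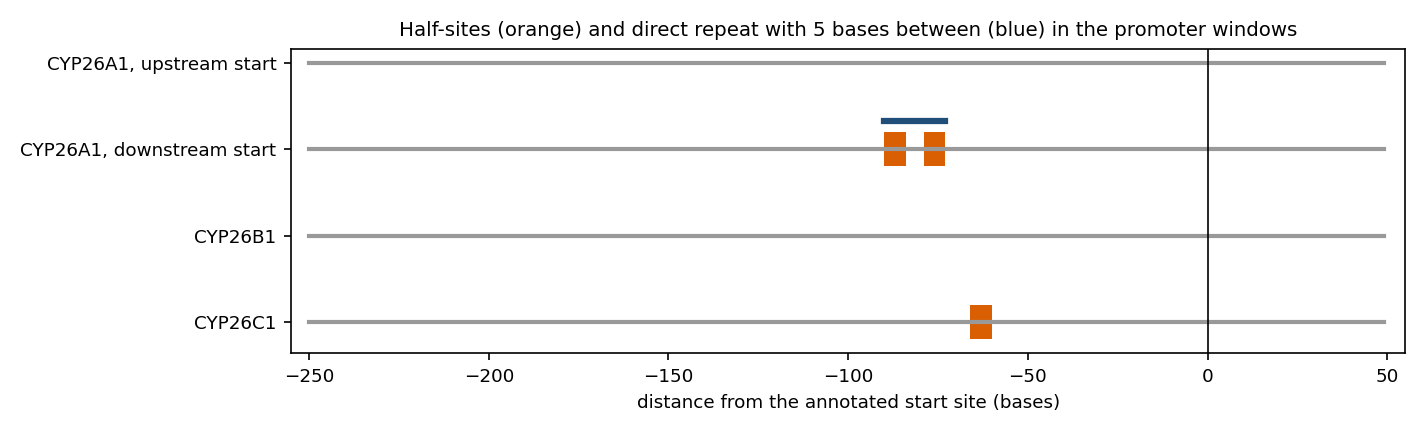
Half-sites (orange) and the direct repeat with 5 bases between (blue) in the RefSeq promoter windows, by distance in bases from the annotated start (vertical line). The repeat at -90 to -74 lies before the downstream CYP26A1 start, and the single CYP26C1 half-site lies at -66 to -61.

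The values are log2 intensities that the authors had already quantile normalized, so that all arrays have the same distribution. The array medians lay between 4.738 and 4.740 and the highest value was 14.73. A log2 intensity of 6 in at least 4 of the 16 arrays was taken as the filter on low values. In the deposited table the values of the 4 replicate 1 arrays sit 1 row too low from row 10569 onward. The CYP26 probes stand at rows 7266 to 7271, before that point, so their values are the same with and without the shift. The shift does reach the other genes of the fit and through them the adjusted p-values. The replicate 1 arrays also differ in level from the rest at 6590 of 12467 genes (52.9%), and for CYP26A1 and CYP26B1 this difference was 1.03 and -0.14 on the log2 scale, with limma adjusted p = 0.546 and 0.895. Squamous markers were bright on every array. Of 14 listed 10 had a probe, and all 10 passed the filter, with a mean log2 intensity between 10.76 and 11.97. Simple epithelial markers passed in 9 of 10 cases, with a mean between 9.69 and 10.16. Fibroblast and leukocyte markers passed in 2 of 11 and 2 of 12 cases, with a probe for 11 of each.

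The 6 h arrays split on the CYP26 genes, and this has to be known before any mean at 6 h is read. Replicates 1 and 3 stood far above all DMSO arrays for CYP26A1 and CYP26B1. The arrays labelled 6 h replicate 2 and 6 h replicate 4 stood within or below the range of the DMSO arrays. Over all genes and probes in the fit the lowest correlation within the 6 h group was 0.917, against 0.927 to 0.931 as the lowest values in the other groups. In every group the lowest value belonged to a pair with the replicate 1 array, and these arrays differ in level from the rest. At 6 h replicate 1 correlated at 0.917 with replicate 4 and at 0.945 or more with replicate 3. Replicate 3 also correlated at 0.945 or more with replicates 2 and 4. Whether the split extends over all genes was not tested, and neither was its cause. Results at 6 h are therefore given array by array. Those at 1 h and 3 h are also given from fits of only the 2 groups compared, which leave out the 6 h arrays and the other ATRA time.

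CYP26A1 was measured best by probe ILMN_1788131, the brightest of its 4 and the one used in the fit across all genes. In the DMSO arrays it stood at 7.26, 8.58, 8.83 and 7.79 on the log2 scale in replicates 1 to 4, a mean of 8.12 ± 0.72 (SD, n = 4). The vehicle-treated cells thus gave a CYP26A1 signal above the filter's floor on 4 of 4 arrays. After 1 h of ATRA the arrays read 10.77, 7.51, 11.81 and 12.14, with a mean of 10.56 ± 2.11 (SD, n = 4). The arrays of replicates 1, 3 and 4 lay above all DMSO arrays, and that of replicate 2 lay among them. After 3 h the values were 12.99, 14.02, 12.18 and 13.58, with a mean of 13.19 ± 0.80 (SD, n = 4). All 4 arrays at 3 h lay above all DMSO arrays, as for 3.02% of the 12467 genes and probes tested, and above all 1 h arrays, as for 1.84% of them. At 6 h the arrays read 12.95, 4.53, 13.13 and 5.45, with a mean of 9.01 ± 4.66 (SD, n = 4). Replicates 1 and 3 were above every DMSO array and replicates 2 and 4 below every one of them, under the floor of 6. No single 6 h array lay near that mean.

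Of the other CYP26A1 probes, ILMN_1651490, annotated to a different CYP26A1 transcript from the other three, was near background in vehicle-treated cells, at 4.59, 4.90, 5.48 and 4.67. It read 7.55, 4.73, 7.40 and 8.76 at 1 h, 10.62, 11.50, 8.34 and 10.61 at 3 h, and 10.46, 4.55, 9.40 and 4.53 at 6 h. The arrays that were low on the brightest probe, 1 h replicate 2 and 6 h replicates 2 and 4, were at background on this one too. Probe ILMN_2407314 read 4.76, 5.29, 5.39 and 4.83 with DMSO, 7.27, 4.42, 8.05 and 8.42 at 1 h, 9.88, 11.15, 8.62 and 10.28 at 3 h, and 10.01, 4.34, 9.66 and 4.34 at 6 h. Because all DMSO arrays were below the floor of 6, only bounds can be given for these probes. At 3 h the mean of ILMN_1651490 was at least 19.2-fold and that of ILMN_2407314 at least 15.8-fold above the floor, with 4 of 4 arrays above it. At 1 h the bounds were at least 2.16-fold and 2.06-fold, with 3 of 4 arrays above the floor. These probes passed the filter only through the ATRA arrays, so they are no independent support. The fourth probe, ILMN_1744123, stayed between 4.51 and 5.34 on all 16 arrays and gave no usable signal.

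CYP26B1 has a single probe, ILMN_1812297. In the DMSO arrays it stood at 6.22, 6.96, 6.88 and 7.80, a mean log2 intensity of 6.97 ± 0.65 (SD, n = 4). After 1 h it read 9.74, 9.07, 11.42 and 11.25, with a mean of 10.37 ± 1.15 (SD, n = 4). All 4 arrays at 1 h lay above all DMSO arrays, as for 1.68% of the genes and probes tested. They include replicate 2, which had stayed among the DMSO arrays for CYP26A1. After 3 h the values were 11.11, 12.74, 11.00 and 12.41, with a mean of 11.82 ± 0.89 (SD, n = 4). All 4 lay above the DMSO arrays, as for 3.02% of the genes and probes tested, while they overlapped with those of 1 h. At 6 h CYP26B1 read 10.68, 6.70, 11.51 and 7.12, with a mean of 9.00 ± 2.44 (SD, n = 4). Here too replicates 1 and 3 were above every DMSO array. Replicates 2 and 4 lay within the DMSO range, not below it as for CYP26A1.

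CYP26C1 gave no signal above the floor. Its probe, ILMN_1702769, read between 4.36 and 4.80 on the 16 arrays, and 0 of them reached 6. The group means were 4.54 ± 0.19 with DMSO, 4.49 ± 0.11 at 1 h, 4.63 ± 0.14 at 3 h and 4.57 ± 0.11 at 6 h (SD, n = 4 each). The differences from DMSO, -0.05, 0.09 and 0.03 on the log2 scale, were smaller than the spread between replicates. They were not tested in the fit with the filter, which the probe did not pass. In the limma fit with no filter CYP26C1 was not called in any comparison. A CYP26C1 transcript below the reach of this probe cannot be told apart from none.

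**Figure D2:**
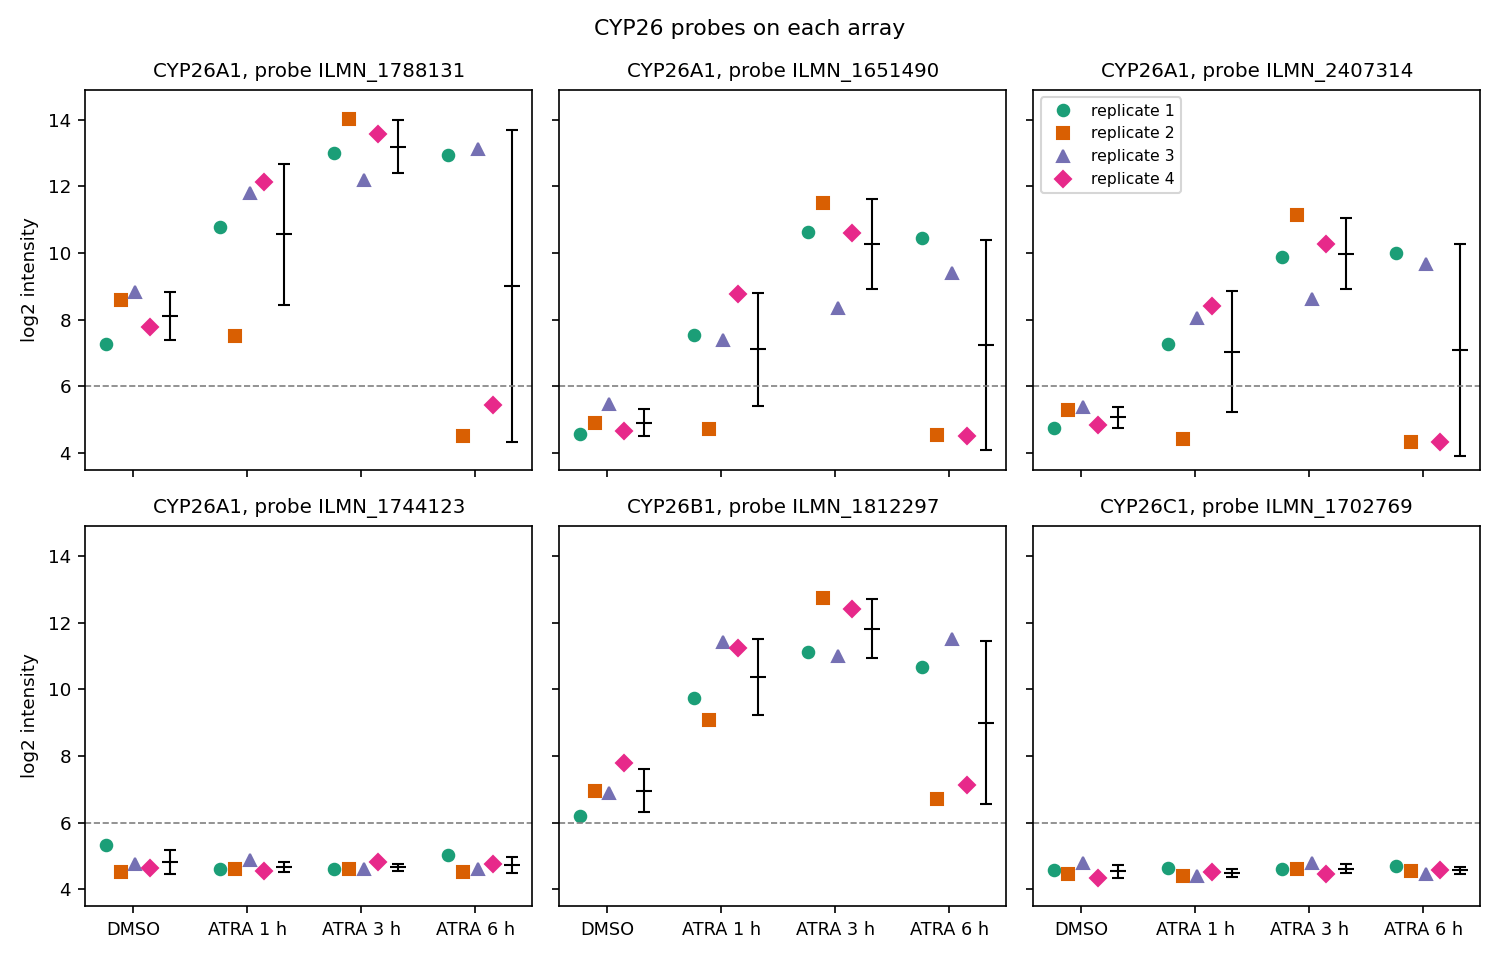
Log2 intensity (vertical axes) of the 6 CYP26 probes in the DMSO, ATRA 1 h, ATRA 3 h and ATRA 6 h arrays, 1 point per array with its shape giving the replicate, and the mean with its SD (n = 4) as a bar; the dashed line is the floor of 6. CYP26A1 on ILMN_1788131 runs from 7.26 to 8.83 with DMSO and from 12.18 to 14.02 at 3 h, and the 6 h arrays of replicates 2 and 4 lie at 4.53 and 5.45.

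The comparison of each time with DMSO asks how soon and how far the family responds to its own substrate. In the fit over all 16 arrays, only CYP26B1 at 3 h passed the test across all genes. It was 4.85 higher on the log2 scale (SE 0.93, 95% interval 2.88 to 6.83), a 28.9-fold rise, with limma adjusted p = 0.0291. Its 4 arrays lay above all DMSO arrays, as for 3.02% of the genes and probes tested. The limma call was made for 1 of the 2 members tested, against 0.433% of 12467 genes and probes called higher at 3 h. By size this change was rank 3 of all 12467. Without the 4 replicate 1 arrays it was 4.84 with adjusted p = 0.0678, past the threshold no longer. Single arrays also decided the call: it was lost on leaving out replicate 1 (adjusted p = 0.0958), 2 (0.114) or 3 (0.0992) of DMSO, or replicate 2 (0.142) or 4 (0.116) of 3 h, with changes of 4.54 to 4.85.

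CYP26A1 at 3 h was 5.08 higher (SE 1.66, 95% interval 1.55 to 8.61), a 33.8-fold difference and rank 2 of 12467 by size, with limma adjusted p = 0.265. The difference missed the threshold although the groups did not overlap. The error in this fit is shared by the 4 groups, so the spread of the 1 h and 6 h arrays enters it. CYP26A1 had a pooled within-group SD of 2.62, rank 1 among 12467 with a median of 0.39, and CYP26B1 had 1.46, rank 19. With the DMSO and 3 h arrays alone in the fit, the same difference of 5.08 had an SE of 0.46 and limma adjusted p = 0.00306. CYP26B1 at 3 h had an SE of 0.47 and adjusted p = 0.00343 in that fit. Both genes passed there, where 52 of all 12467 genes and probes were called higher.

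At 1 h CYP26B1 was 3.41 higher than with DMSO (SE 0.93, 95% interval 1.43 to 5.38), 10.6-fold, with limma adjusted p = 0.225 over all 16 arrays. With only the 8 arrays compared in the fit the SE was 0.55 and the adjusted p = 0.0355. CYP26A1 at 1 h differed by 2.44 (SE 1.66, 95% interval -1.09 to 5.97), 5.43-fold, and did not pass in either fit. The value depended on 1 h replicate 2, without which it was 3.46, and with array weights it was 1.42. At this time 0.489% of all genes and probes were called higher over all 16 arrays, and 57 of 12467 in the fit of the 8 arrays. Replicate 2 at 1 h stood at -0.61 relative to the DMSO mean for CYP26A1 and at 2.10 for CYP26B1.

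At 6 h neither gene passed, and neither did any of the 12467 genes and probes in this fit (0% higher and 0% lower by limma). An unadjusted limma p under 0.05 was found for 548 of them, fewer than that threshold would pass by chance among so many tests. With array weights limma called 42 higher and 44 lower. The CYP26A1 mean differed from DMSO by 0.90 (95% interval -2.63 to 4.42) and that of CYP26B1 by 2.04 (95% interval 0.06 to 4.01), both with limma adjusted p = 1.00. Against the DMSO mean the 6 h arrays of replicates 1 to 4 stood at 4.83, -3.59, 5.01 and -2.67 for CYP26A1. For CYP26B1 the same arrays stood at 3.72, -0.26, 4.54 and 0.16. Left out singly, 6 h replicate 1 or 3 turned the mean CYP26A1 difference to -0.42 or -0.48. With other arrays left out singly, the CYP26A1 difference reached 2.39. That of CYP26B1 was 1.204 without 6 h replicate 3 and 2.81 without 6 h replicate 2. No fit without both low arrays was made, since they would have been chosen by the outcome.

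Between the ATRA times, CYP26A1 was 2.64 higher at 3 h than at 1 h (95% interval -0.89 to 6.16) and CYP26B1 1.45 higher (95% interval -0.53 to 3.42), with limma adjusted p = 1.00 for both and 0.0241% of all genes and probes called higher. On probe ILMN_1788131 the lowest CYP26A1 array at 3 h lay only just above the highest at 1 h, at 12.18 against 12.14. On ILMN_1651490 the 2 groups overlapped, with 8.34 as the lowest at 3 h and 8.76 as the highest at 1 h. On ILMN_2407314 they did not. The CYP26B1 arrays of 3 h and 1 h overlapped. Without 1 h replicate 2 the CYP26A1 difference was 1.62. From 3 h to 6 h the mean differences were -4.18 for CYP26A1 (95% interval -7.71 to -0.65) and -2.81 for CYP26B1 (95% interval -4.79 to -0.84), with limma adjusted p = 1.00 and 0.962, and 0% of all genes and probes were called lower. Ordered from the highest, these were rank 12467 and rank 12465 of 12467 changes, and both means at 6 h hold the low arrays of replicates 2 and 4. Leaving out 1 array of 6 h moved them to between -5.55 and -2.69 for CYP26A1 and between -3.65 and -2.05 for CYP26B1. Between 1 h and 6 h the differences were -1.54 for CYP26A1 and -1.37 for CYP26B1, with limma adjusted p = 1.00 for both, where 0.297% of all genes and probes were called lower. In order of mean level, both genes ran from 3 h through 1 h and 6 h down to DMSO. For CYP26A1 on ILMN_1788131 only the step from 1 h to 3 h had no overlap between neighbouring groups, by the narrow margin given above. For CYP26B1 all neighbours overlapped.

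**Figure D3:**
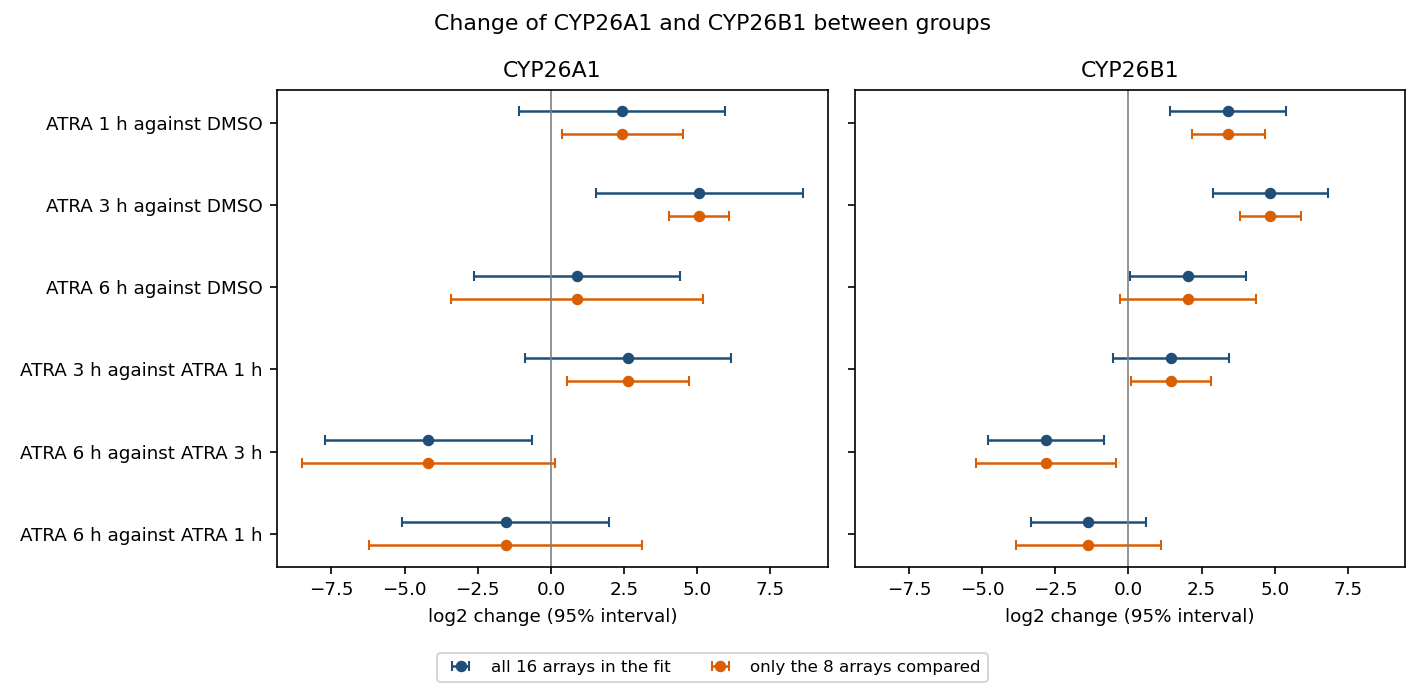
Log2 change of CYP26A1 and CYP26B1 in the 6 comparisons, with 95% intervals (horizontal bars), from the fit over 16 arrays (blue) and from fits over the 8 arrays compared (orange). At 3 h against DMSO the changes are 5.08 and 4.85, and the intervals there are narrower in the fit over the 8 arrays compared, which holds neither the 1 h nor the 6 h arrays.

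Within the replicate 1 set, whose arrays share a difference in level, the change can be read without the other arrays. Against DMSO replicate 1, CYP26A1 was 3.51 higher at 1 h, 5.73 higher at 3 h and 5.69 higher at 6 h on the log2 scale. CYP26B1 was 3.53, 4.89 and 4.46 higher. With 1 array per time there is no test. In this set CYP26B1 read 11.11 at 3 h and 10.68 at 6 h. The CYP26A1 values at these times were close, 12.99 and 12.95, and its other probes went both ways. ILMN_1651490 read 10.62 at 3 h and 10.46 at 6 h, and ILMN_2407314 read 9.88 and 10.01. No fall of CYP26A1 from 3 h to 6 h can be read from this set.

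Both genes were then set against each other by their changes, since the levels of different probes cannot be compared. The CYP26A1 change minus the CYP26B1 change was -0.96 at 1 h, 0.23 at 3 h and -1.14 at 6 h on the log2 scale. Exact two-sided permutation tests of 4 arrays against 4, which cannot give a p below 0.0286, gave p = 0.229, 0.686 and 0.371, or 0.557, 0.686 and 0.557 after Benjamini-Hochberg adjustment over the 3. No difference between the responses of the 2 genes was thus shown. Array by array they differed most in 1 h replicate 2 and in 6 h replicates 2 and 4, where CYP26A1 lay further down relative to its DMSO mean.

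**Figure D4:**
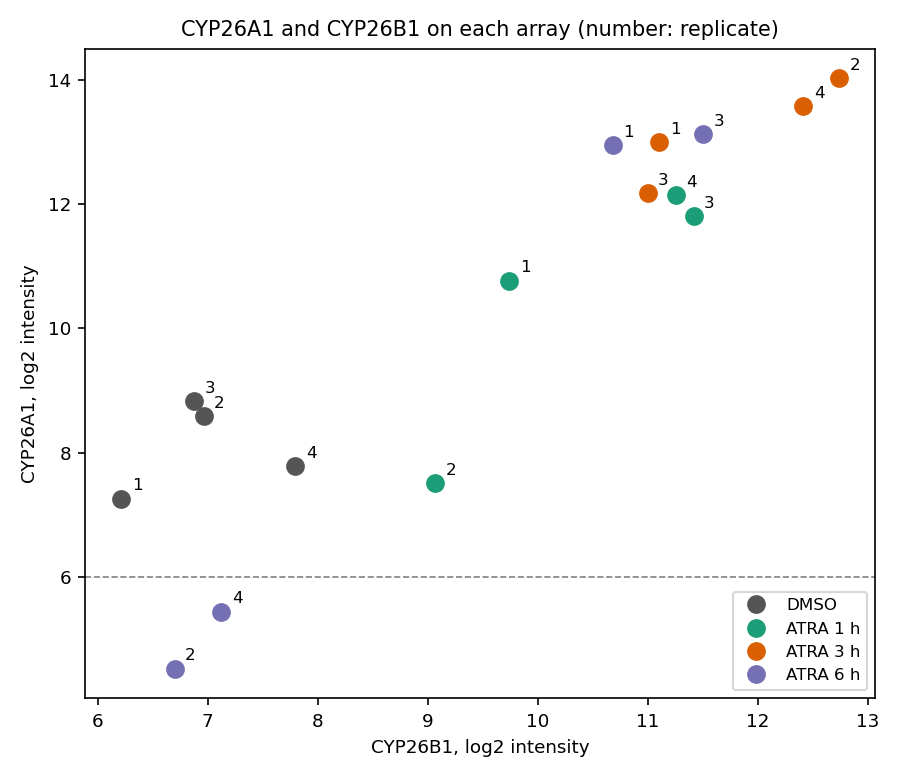
CYP26A1 (vertical, log2 intensity, probe ILMN_1788131) against CYP26B1 (horizontal, log2 intensity) on the 16 arrays, coloured by group and numbered by replicate; the dashed line is the floor of 6. The 3 h arrays lie at the upper right, and the 6 h arrays of replicates 2 and 4 lie at 4.53 and 5.45 for CYP26A1 with CYP26B1 at 6.70 and 7.12.

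The genes most like CYP26A1 over the 16 arrays, by Pearson's r among 9650 named genes, were INPP1, CASP9, TSPAN1, CYP26B1 and CAVIN2. Their r ran from 0.939 for INPP1, an inositol polyphosphate phosphatase, to 0.909 for CAVIN2, a coat protein of caveolae, with Spearman's rho of 0.929 and 0.871. CYP26B1 was the fourth, with r = 0.914 and rho = 0.885. For CYP26B1 the genes were SLC20A1, a phosphate transporter, IL1B, a cytokine, CASP9, the initiator caspase of the mitochondrial pathway, PRICKLE1, a planar polarity protein, and PTPRH, a receptor tyrosine phosphatase. Their r ran from 0.950 for SLC20A1 to 0.924 for PTPRH, and CYP26A1 ranked 10. Over the 12 arrays of replicates 2 to 4, r with CYP26A1 was highest for PFKFB3, at 0.965, and INPP1 came next at 0.958. These values describe arrays that share groups and the split at 6 h, and no p is given.

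Of the genes most like CYP26A1, some were split at 6 h in a similar way. INPP1 read 11.68, 10.42, 11.72 and 10.76 at 6 h, against 10.81 to 11.07 with DMSO. CASP9 read 10.08, 7.18, 9.38 and 7.68, against 7.63 to 8.10 with DMSO. CAVIN2 read 8.63, 5.68, 8.30 and 4.65, against 6.42 to 6.79. TSPAN1 read 8.82, 6.28, 8.52 and 7.13, against 6.74 to 7.49. In each of these genes 6 h replicates 1 and 3 were above all DMSO arrays, and replicate 2 was below all of them. The share of all genes split in this way was not counted. In the genes most like CYP26B1 the split was less even. Replicate 4 at 6 h lay above all DMSO arrays for IL1B (8.15), SLC20A1 (11.52) and PTPRH (5.36). For PTPRH replicate 1 at 6 h read 5.47, and both of these PTPRH values lay under the floor of 6. All of these genes were picked for likeness to the CYP26 genes over these same arrays, so they add no independent support. Against DMSO at 3 h INPP1 differed by 1.25 (limma adjusted p = 0.0729), CASP9 by 2.01 (0.0734), TSPAN1 by 2.16 (0.0586) and CAVIN2 by 1.46 (0.623), and none passed. SLC20A1 passed the limma test at 1 h (2.30, 0.00486) and at 3 h (2.57, 0.00576). At 3 h so did IL1B (4.08, 0.0408), while PRICKLE1 did not (1.75, 0.0549). PTPRH was also called by limma at 3 h (2.32, 0.00867), but it read 4.72 to 5.08 with DMSO, under the floor of 6. It passed the filter only through ATRA arrays, so the size of its change is not exact and its call is no support.

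The other retinoid genes were taken from lists chosen with earlier results of these data known. Of 34 known retinoic acid-induced genes other than the CYP26 family, 31 had a probe and 15 passed the filter. Their median log2 change from DMSO was 0.08 at 1 h, 0.67 at 3 h and 0.00 at 6 h, against -0.03, -0.04 and -0.01 over all 12467 genes and probes. Over all 16 arrays, 1 of these 15 passed at 1 h and 1 at 3 h: BHLHE40, a transcriptional repressor of the clock, rose at 1 h (2.92, limma adjusted p = 0.00152), and GPRC5A, an orphan receptor known as retinoic acid-induced, rose at 3 h (2.48, 0.0222). GPRC5A read 9.76, 8.16, 8.08 and 8.78 with DMSO and 11.23, 11.01, 10.80 and 11.65 at 3 h, with no overlap. Over all 12467 genes and probes, the fits of only the groups compared called 57 higher at 1 h and 52 at 3 h. Of the 15, 2 passed at 1 h and 3 at 3 h in these fits. The added ones were ELF3, an epithelial transcription factor, at 1 h (2.29, 0.0146) and 3 h (1.69, 0.0126), and NRIP1, a corepressor of nuclear receptors, at 3 h (2.62, 0.0271), both named after their values were seen. With the replicate 1 set as a block, 3 of the 15 passed at 3 h, where 234 of all 12467 genes and probes were called higher. They were GPRC5A, NRIP1 and SOX9, a transcription factor (1.56, limma adjusted p = 0.0225). SOX9 was named after its values were seen. At 6 h none of the 15 passed over all 16 arrays. With array weights 1 passed, where 42 of all 12467 genes and probes were called higher. BHLHE40, unlike CYP26A1 and CYP26B1, had its highest values at 1 h, from 10.53 to 12.15, and 7.96 to 9.54 at 3 h.

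Among the enzymes that supply retinoic acid, 13 of 24 passed the filter, and none passed the test over all 16 arrays at 1, 3 or 6 h, with medians of -0.01, 0.03 and -0.05. DHRS3, a retinal reductase that lowers the supply of retinoic acid, read 11.14 to 11.48 with DMSO and 11.77 to 12.22 at 3 h, a difference of 0.71 (limma adjusted p = 0.999). At 6 h DHRS3 read 12.33, 9.24, 12.69 and 10.27, so replicates 2 and 4 lay below all DMSO arrays, as for CYP26A1. The difference for ALDH1A3, a retinal dehydrogenase that makes retinoic acid, was 1.00 at 3 h (0.539). ALDH1A3 passed with the replicate 1 set as a block (0.0185), where 234 of all 12467 genes and probes were called higher. RDH10, a retinol dehydrogenase, differed by 0.52 at 3 h (0.999).

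Of 15 genes for retinoid binding and uptake 11 had a probe, 3 passed the filter and none passed the test at any time. CRABP2, which carries retinoic acid to its receptor, stayed between 13.18 and 14.01 on all arrays, with a difference of 0.32 at 3 h (limma adjusted p = 0.895). STRA6, a retinol transporter, had 1 probe that reached 4.69 at most. Of 20 receptors and coregulators 17 had a probe and 13 passed the filter. None passed the test against DMSO over all 16 arrays, with a median of -0.15 at 3 h. RXRA, the alpha retinoid X receptor, was lower at 3 h once the replicate 1 arrays were omitted (-0.89, limma adjusted p = 0.0328) or that set was entered as a block (-0.83, 0.0167). With that block PPARD, a nuclear receptor for fatty acids (0.61, 0.0287), and NRIP1 (2.62, 0.0329) were called higher. Over all 12467 genes and probes the block called 234 higher and 150 lower at 3 h, against 54 and 11 without it. With the replicate 1 arrays omitted, 65 were called higher and 29 lower. RARA, the alpha receptor, differed by 0.11 at 3 h, and RARB, itself a known receptor target, had 3 probes below the filter with a highest value of 6.12. Of 14 other P450 enzymes able to oxidize retinoids 12 had a probe and 5 passed the filter. None passed the test against DMSO over all 16 arrays, with a median of -0.08 at 3 h. With the replicate 1 set as a block CYP4F11, a fatty acid hydroxylase, was called higher at 3 h (0.65, 0.0261). These genes called under the block were named after their values were seen. 

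NRIP1, ELF3 and IRF1, the last also chosen after its values were seen, had 6 h replicates 1 and 3 above all DMSO arrays. How common this is among all genes was not counted. NRIP1 read 8.81, 6.57, 9.48 and 6.03 at 6 h against 6.43 to 6.98 with DMSO. ELF3 read 10.74, 7.92, 10.92 and 8.58 against 9.10 to 9.69. IRF1, an interferon-response factor, read 11.67, 9.16, 11.12 and 10.00 against 9.77 to 10.61. CYP26B1 had no array at 6 h below all DMSO arrays, whereas CYP26A1, DHRS3 and ELF3 each had replicates 2 and 4 there.

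**Figure D5:**
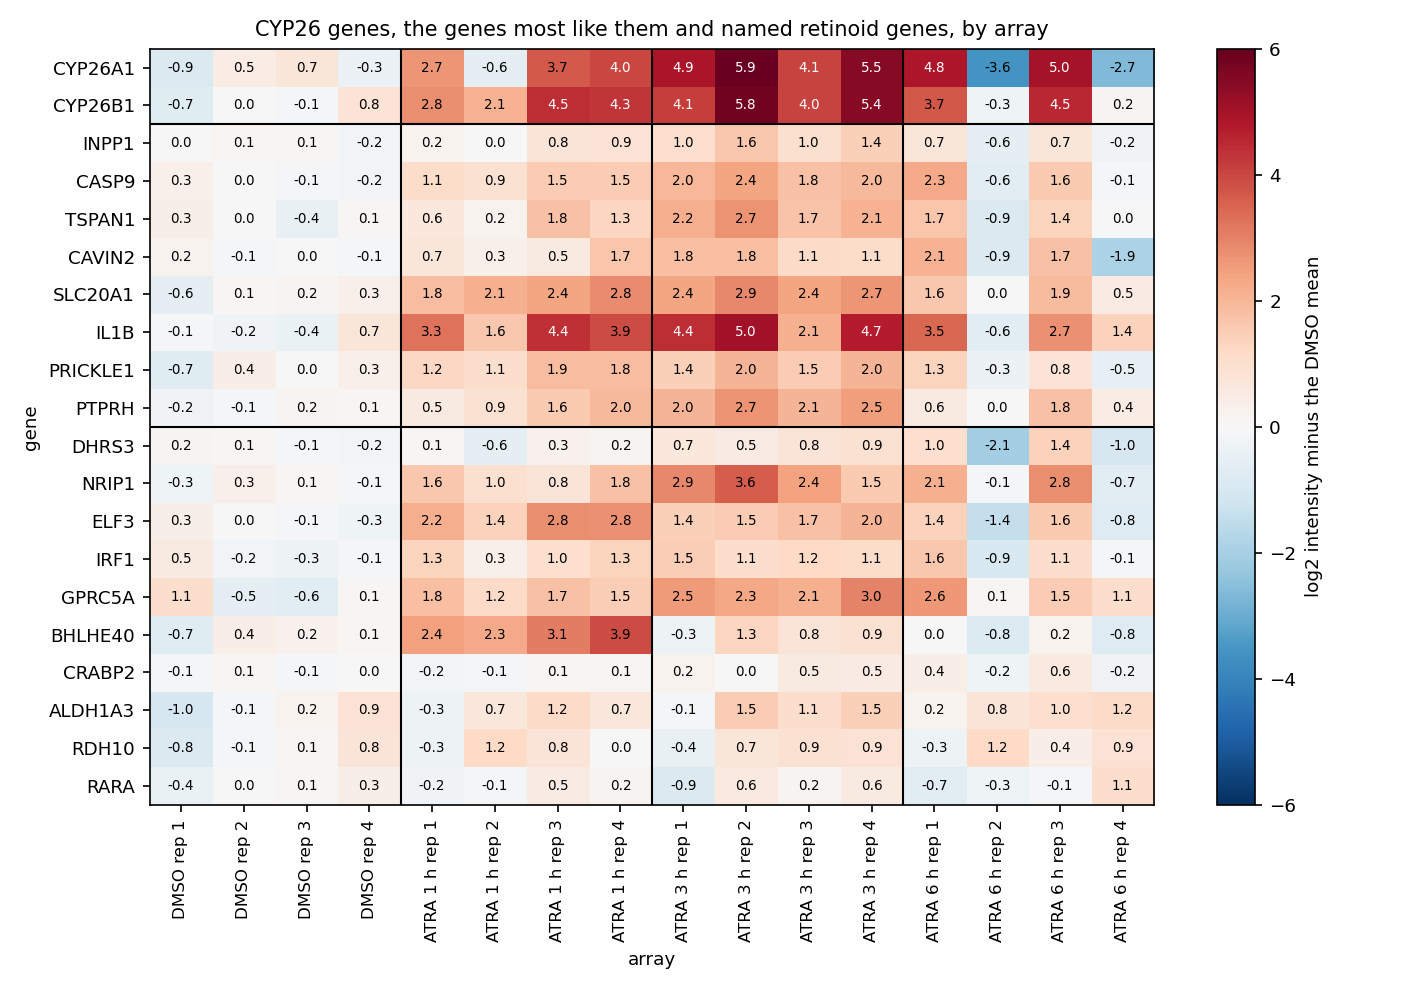
Log2 intensity minus the DMSO mean (colour and printed number) for 20 genes (rows) on the 16 arrays (columns, by group and replicate). The top block is the CYP26 genes, the middle one the genes most like them and the bottom one named retinoid genes; the 6 h arrays of replicates 2 and 4 are at -3.59 and -2.67 for CYP26A1.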

How the data were processed

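Per the labels' protocols, biotin-labelled cRNA made from ME180 total RNA was put on Illumina arrays. The deposited table holds 1 log2 intensity per probe and array, already quantile normalized by the authors (the largest spread at one rank was 0.0181 over the lower 99% of ranks). The submitters' processing notes name limma; how the background was corrected is not given in the sources used here. Neither is the logarithm's base, taken as 2 from the range of values. The scale was read as brighter probes having higher values. The number of arrays limits the precision. A deposited table of non-normalized intensities, with 32 value columns that match no sample label, served for row order only.

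From row 10569 of 47230 the replicate 1 values were moved up by 1 row (r with the other arrays 0.325 before the move and 0.979 after it). Probes were kept at log2 6 or more in at least 4 arrays, the brightest probe stood for a gene, and 12467 genes and probes (9651 with a symbol) were fitted with limma 3.58.1 in R 4.3.3, as 1 model of 4 groups over 16 arrays with eBayes and Benjamini-Hochberg adjustment at 0.05 over all of them, two-sided. Of the probes, 30112 had 1 gene symbol and 8 had several. The genes named were the members, the 5 genes most like each, list members past the threshold against DMSO, and 8 retinoid genes. The members and lists were chosen with earlier results of these data known. Alternatives were blocks for the replicate number and for the replicate 1 set, arrays left out, fits of 2 groups, other filters, a trend with robust variances, array weights, mean of probes and rows as deposited; single probes were added after seeing the data. The test was checked on simulated data. Promoter sequences and coordinates are RefSeq's, GRCh38.p14. Probe and protein sequences were not used here.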

Additional observations from a re-analysis of the deposited data

Results flagged for a closer look

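Of 96 groups of 4 arrays examined for a stray array, 2 were flagged, and chance flags about 1 in 20. The background-level CYP26A1 probe ILMN_1744123 read 4.82 in 3 h replicate 4 against a median of 4.61 in the others and thus stood apart by 0.912 of the group's range. RDH10 read 9.73 in 3 h replicate 1 against a median of 11.05, a gap of 0.854 of the range, and it also read lowest in replicate 1 with DMSO, at 9.33. The wide split of CYP26A1 and CYP26B1 at 6 h was not picked up in this way, since 2 arrays lay on each side.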

How the results depend on the processing

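The calls for CYP26A1 and CYP26B1 rest on 4 arrays per group. With only the groups compared in the fit, CYP26A1 at 3 h (5.08, adjusted p = 0.00306) and CYP26B1 at 1 h (3.41, 0.0355) passed the limma test. CYP26B1 at 3 h lost its call with no filter (4.85, 0.104), with rows as deposited (4.85, 0.192), without replicate 1 (4.84, 0.0678), and without each of 5 single arrays (0.0958 to 0.142). Leaving out 1 array at a time, its value ran from 4.54 to 5.13. CYP26A1 at 6 h turned to -0.70 without replicate 1, and single arrays left out gave -0.48 to 2.39, with -0.42 without 6 h replicate 1. CYP26A1 at 6 h against 1 h, -1.54, turned to 0.13 with array weights and to 0.12 and 0.046 on probes ILMN_1651490 and ILMN_2407314. The CYP26A1 minus CYP26B1 change at 3 h ran from -0.16 to 0.49 over single arrays left out, the lowest without DMSO replicate 4. The causes were not tested. Deviations of same-numbered arrays correlated at 0.79 to 0.90 for replicate 1 and at 0.05 to 0.62 for replicate 2. They correlated at -0.13 to 0.44 for replicate 3 and at -0.13 to 0.70 for replicate 4. Arrays of unlike number were not compared, so whether the replicate numbers pair the arrays was not settled. With the replicate number as a block, CYP26B1 at 3 h was 4.85 (0.0177) and CYP26A1 5.08 (0.118), no CYP26 call changed, and the genes called at 3 h went from 54 higher and 11 lower to 208 and 133. With the replicate 1 set as a block they were 234 and 150, with array weights 285 and 177, and with no filter 18 and 7. CYP26C1 was below the filter, so the alternatives that keep the filter gave no fitted value for this gene, and with no filter it was not called.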
